A study of Homo sapiens with 2 samples.

Results

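The 10 genes described here belong to the BCL2 family of apoptosis regulators and were chosen by name out of 19794 protein-coding genes on the autosomes and sex chromosomes. They were BBC3 (PUMA), PMAIP1 (NOXA), BID, BCL2L11 (BIM), BAD, BAX, BAK1, BCL2, BCL2L1 (BCL-XL) and MCL1. For each gene, NRF-1 ChIP-seq peaks were read within 1 kb of a protein-coding transcript start, upstream or downstream (hereafter the promoter), and in the rest of the gene body. The cells were U251, an established human glioblastoma line, and the immunoprecipitation used an antibody against the transcription factor NRF-1. One sample had been transfected with a control siRNA (siControl) and the other with an siRNA against AATF, the transcriptional cofactor under study (siAATF, for which the study used the oligonucleotide it calls siAATF #1). Nothing else is listed as different between them. The sample labels name U251 cells, whereas the series design text names U138 cells. The study describes the ChIP-seq as done in duplicate, but 1 peak list per condition was analysed here, each carrying the replicate number 1, and the sources used here do not say whether reads were pooled. There was thus no replicate error and no test between conditions, and the differences below are differences between these 2 lists.

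In all, 18014 peaks were listed for siControl cells and 18454 for siAATF cells. Read depth, an input or non-specific antibody control and the level of AATF could not be read from peak lists. Each peak carries a fold enrichment, the ratio of its signal to the local background that the caller used. It also carries a −log10 q, the caller's strength of evidence, which for a given ratio grows with the number of reads. As neither value is on a scale shared by both libraries, peaks were set side by side through their percentile rank within their own list. Ranks run from 0 for the weakest peak to 100 for the strongest. A rank cannot show a gain or loss shared by all peaks. A higher or equal rank in siAATF cells therefore need not mean more or unchanged binding. The study reports less NRF-1 protein in some AATF-depleted lines, and a shift of NRF-1 from nucleus to cytoplasm in U251 cells.

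The proteins of the BCL2 family decide whether the outer mitochondrial membrane stays intact. BH3-only proteins sense stress, BAX and BAK1 form the pores through which cytochrome c escapes, and BCL2, BCL2L1 and MCL1 hold both of them in check, and tumour cells with high levels of the survival proteins can resist killing. NRF-1 is known as a regulator of nuclear genes for mitochondrial respiration, cytochrome c among them, and binds a GC-rich palindrome in CpG-rich promoters.

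The DNA under the peaks was searched on both strands for the NRF-1 core, GCGCA followed by any base and then GCGC. Among the promoter peaks of the 10 genes an exact core was found at BAD alone. The first sequence below is its core in 80 bases, at chr11:64053259-64053338, and the next is a second exact core in a peak at the other end of BAD, at chr11:64037401-64037430, where 30 bases are shown. The following sequences hold a match of MCL1, at chr1:150551784-150551863, and of BID, at chr22:18257300-18257379, each with 1 mismatch to the core. Both of these promoter peaks held other sites with 1 mismatch, which are not marked. The label closest match refers to the number of mismatches, which those other sites share, and not to distance. All 4 sequences are given 5′ to 3′ on the plus strand of hg19 (GRCh37), with the core or near-core in capitals.
BAD upstream peak: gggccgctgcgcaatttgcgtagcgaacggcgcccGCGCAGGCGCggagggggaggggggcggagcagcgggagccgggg
BAD 3-prime peak: tcgcgacttaGCGCAGGCGCctgggggaaa
MCL1 closest match: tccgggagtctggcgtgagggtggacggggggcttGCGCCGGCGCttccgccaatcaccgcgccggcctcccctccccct
BID closest match: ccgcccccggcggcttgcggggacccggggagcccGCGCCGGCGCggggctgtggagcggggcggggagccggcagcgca

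The BAD, MCL1 and BID sequences come from 3 of the 4 members with the highest −log10 q. In contrast, the BH3-only gene PMAIP1 and the pore-former BAX had promoter peaks, also over CpG-rich DNA, with no core even at 1 mismatch. To show what lies there, the 100 bases before each canonical start are given below 5′ to 3′ on the strand of the gene, with every CpG in capitals. They are chr19:49458032-49458131 for BAX and chr18:57567128-57567227 for PMAIP1, both on the plus strand. BAX had 15 CpG in its 100 bases with a GC content of 74.0%, and PMAIP1 had 8 with 66.0%.
BAX upstream: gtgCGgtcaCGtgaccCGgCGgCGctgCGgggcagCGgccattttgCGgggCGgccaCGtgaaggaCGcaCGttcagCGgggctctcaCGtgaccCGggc
PMAIP1 upstream: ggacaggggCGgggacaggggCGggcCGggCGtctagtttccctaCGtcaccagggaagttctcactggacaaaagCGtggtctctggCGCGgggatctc

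All 10 genes had an NRF-1 promoter peak in siControl cells and all 10 had one in siAATF cells. The background was high, as such a peak was found at 61.1% of all coding genes in siControl cells and 60.7% in siAATF cells. In all 10 genes the peaks of both lists overlapped, against 59.4% of coding genes. Among coding genes with a promoter peak, however, the overlap was 97.2% of those in siControl cells and 97.9% of those in siAATF cells, so that the members did not stand apart. Each list held 17 peaks on these genes, 12 at promoters and 5 in gene bodies, and 0 of the 17 lacked an overlapping peak in the other list, where 88.6% of all siControl peaks and 86.6% of all siAATF peaks had one. With a −log10 q of at least 5 required, 9 genes kept a promoter peak in siControl cells, where PMAIP1 was the gene left out, and all 10 kept one in siAATF cells. The corresponding share of coding genes was 51.5% in siControl cells and 51.5% in siAATF cells.

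By strength, the typical member lay below the typical coding gene with a promoter peak. The median fold enrichment of the strongest promoter peak was 5.92 over the 10 genes in siControl cells, against 6.74 over all coding genes with a promoter peak, and 5.53 against 6.49 in siAATF cells. The median −log10 q was 12.2 against 18.0 in siControl cells and 12.9 against 17.4 in siAATF cells. Of the members, 3 lay above the median rank by fold of all coding genes with a promoter peak in siControl cells and 4 did in siAATF cells. By −log10 q, 4 members lay above it in each list. The peaks of the 10 genes were somewhat richer in GC, with a median of 70.7% against 67.7% in siControl cells, and held a median of 10.7 CpG per 100 bp against 9.22.

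**Figure D1:**
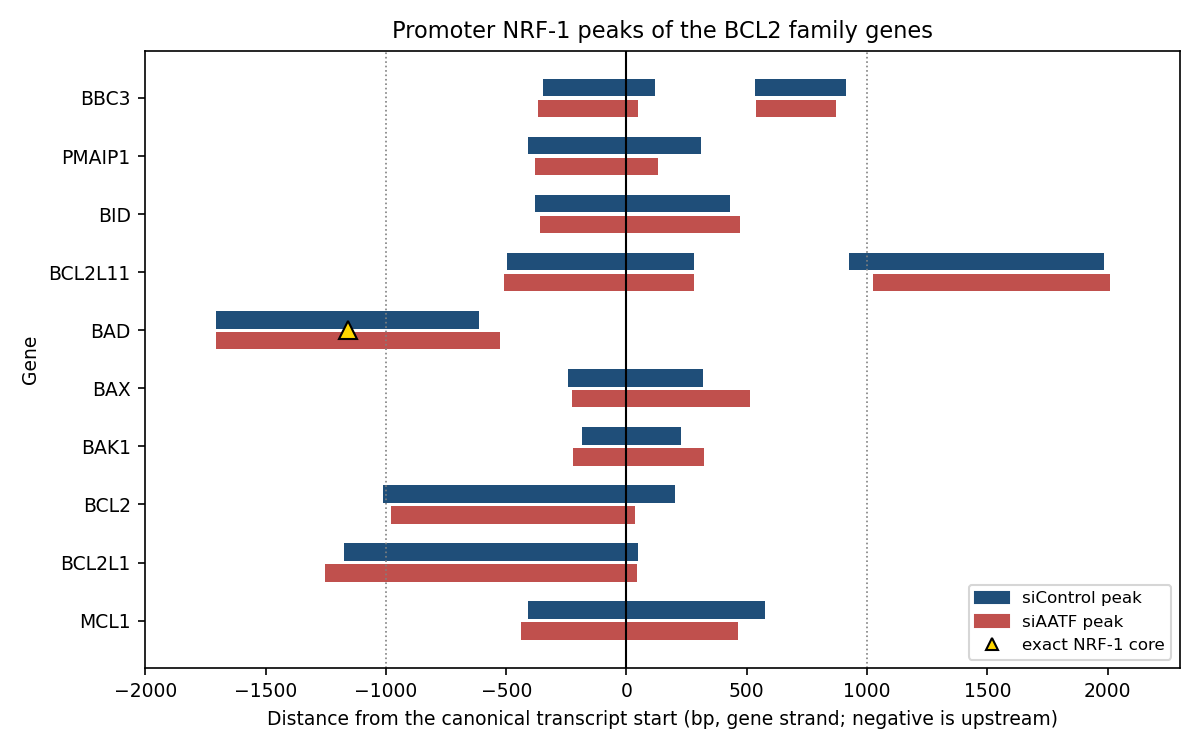
Extent of the promoter peaks of the 10 genes, in bp from the canonical transcript start along the strand of the gene, with siControl bars above siAATF bars, dotted lines at 1 kb either side and a triangle at the exact NRF-1 core. 9 of the 10 strongest peaks cover the canonical start in each list, and the peak of BAD lies wholly upstream, 615 bp away in siControl cells and 527 bp in siAATF cells.

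Among the BH3-only genes, BBC3 encodes PUMA, a potent inducer of cell death. Its gene lies on the minus strand of chromosome 19 (47724079 to 47736023 in hg19, ENSG00000105327.18_8). The strongest promoter peak, chr19:47734340-47734804 in siControl cells and chr19:47734407-47734822 in siAATF cells, covered the canonical start. Its fold enrichment was 3.90 in siControl cells and 3.16 in siAATF cells, and its −log10 q was 10.8 and 6.35. The rank by fold was 15.4 in siControl cells and 2.82 in siAATF cells, a difference of −12.5 points. By −log10 q it ranked 52.5 and 39.9, a difference of −12.6 points, so that both measures placed BBC3 lower in the siAATF list. Of all gene pairs, 18.8% differed at least as much by fold and 7.95% by −log10 q. When BBC3 was ranked by fold among promoter peaks alone, the difference was −6.64 points. Among siControl promoter peaks within 10% of its fold, 94.5% had a lower −log10 q than BBC3, and the median there was 2.87. A second, weaker promoter peak in intron 1 (chr19:47733543-47733923 in siControl cells) had a fold of 2.90 and 2.73 in the siControl and siAATF lists.

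BBC3 was the only one of the 10 genes whose most enriched peak was not at its promoter, in either list. A peak in intron 3, chr19:47729251-47729892 in siControl cells, had a fold of 4.39 and 4.43 and a −log10 q of 16.1 and 17.1 in the siControl and siAATF lists. It ranked 25.8 and 28.5 by fold, above the promoter peak in each list, and differed by 2.76 points where the promoter peak differed by −12.5. A weak peak at exon 2 had a fold of 2.74 and 2.65.

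PMAIP1 encodes NOXA, a sensitizer that neutralizes MCL1. Its peak, chr18:57566820-57567538 in siControl cells and chr18:57566848-57567359 in siAATF cells, covered the start of the gene (57567228 to 57571537, plus strand, ENSG00000141682.12_6). Fold enrichment was 4.90 in siControl cells and 5.43 in siAATF cells. Its −log10 q of 4.12 and 5.34 was the lowest of the 10 genes in each list. PMAIP1 ranked 35.5 by fold in siControl cells and 47.3 in siAATF cells, 11.8 points higher. By −log10 q it ranked 26.7 and 35.3. PMAIP1 and BBC3 thus stood in opposite directions between the lists.

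BID, which is cut by caspase-8 and links death receptors to mitochondria, had one of the strongest peaks of the family. The peak at chr22:18256806-18257614 in siControl cells (chr22:18256765-18257595 in siAATF cells) covered the canonical start and the whole of exon 1. Fold enrichment was 7.98 in siControl cells and 6.97 in siAATF cells, with a −log10 q of 29.1 and 21.7. BID ranked 79.9 and 71.6 by fold, a difference of −8.22 points, and 75.3 and 70.9 by −log10 q. The near-core shown above lies 100 bp upstream of the canonical start, and inside the peak of each list.

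BCL2L11 encodes BIM, which binds all survival members of the family. Its peak at chr2:111877993-111878769 in siControl cells and chr2:111877983-111878769 in siAATF cells covered the canonical start and exon 1. Fold enrichment was 5.98 and 5.63, close to the middle of each list with ranks of 52.4 and 50.8. Its −log10 q of 32.7 and 28.7 ranked far higher, at 77.6 and 76.8. A second promoter peak in intron 1 (chr2:111879416-111880476 in siControl cells) had a fold of 3.08 in siControl cells and 2.97 in siAATF cells, near the bottom of each list with ranks of 2.14 and 1.73.

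BAD encodes a BH3-only protein that is held inactive by growth factor signalling through phosphorylation. The gene lies on the minus strand of chromosome 11 (64037302 to 64052176, ENSG00000002330.14_13), and its promoter peak had the highest −log10 q of the 10 genes in both lists, 70.4 in siControl cells and 61.6 in siAATF cells. Fold enrichment was 7.26 and 6.72, which ranked 70.0 and 67.9, while the ranks by −log10 q were 92.9 and 92.3. The peak (chr11:64052752-64053844 in siControl cells and chr11:64052664-64053844 in siAATF cells) did not reach the canonical start of BAD. It held 5 of the 15 coding transcript starts of GPR137, a gene for a membrane protein that runs the opposite way on the plus strand. The exact core printed first above sat 0 bp from the midpoint of the siControl peak, 26 bp before a GPR137 start at 64053320 and 1157 bp upstream of the canonical start of BAD. The peak can therefore not be assigned to BAD rather than to GPR137.

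At the far end of BAD another strong peak, chr11:64036828-64038160 in siControl cells, overlapped exon 4 and held the second exact core shown above. Its fold was 6.33 in siControl cells and 6.50 in siAATF cells, with a −log10 q of 47.1 and 45.1. This core lay in the annotated UTR of BAD and 123 bp before another GPR137 start, at 64037534. BAD also had the peak that differed most in rank. In intron 2 a small peak, chr11:64044081-64044463 in siControl cells and chr11:64044117-64044414 in siAATF cells, had a fold of 3.88 in siControl cells and 6.34 in siAATF cells. Its −log10 q was 2.18 and 7.81. The rank by fold was 14.8 and 62.1, a difference of 47.3 points, which 40 of all 15770 peaks paired between the lists (0.254%) reached or exceeded. By −log10 q it ranked 8.83 and 45.6. This peak also lies within 1 kb of a coding start of GPR137.

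The effectors BAX and BAK1 are the pore-formers of the outer mitochondrial membrane. BAX (chromosome 19, 49458072 to 49465055, plus strand, ENSG00000087088.21_9) had a peak over its canonical start and exon 1 at chr19:49457891-49458450 in siControl cells and chr19:49457904-49458645 in siAATF cells. Fold enrichment was 6.42 in siControl cells and 5.26 in siAATF cells, and the −log10 q was 10.7 and 8.0. BAX ranked 58.9 and 44.7 by fold, and the difference of −14.2 points was the most negative of the 10 genes. By −log10 q the ranks were 52.2 and 46.2, a smaller difference of −5.98 points.

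BAK1 (chromosome 6, minus strand) had a peak at chr6:33547826-33548239 in siControl cells and chr6:33547730-33548275 in siAATF cells. Fold enrichment was 5.11 and 5.03 and the −log10 q 6.08 and 5.53. Its ranks by fold of 39.0 and 40.4 were the closest of the family, 1.48 points apart. The peak of BAK1 also stood out in base composition, with 14 CpG in the siControl peak or 3.38 per 100 bp, the lowest density among the strongest promoter peaks of the 10 genes.

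**Figure D2:**
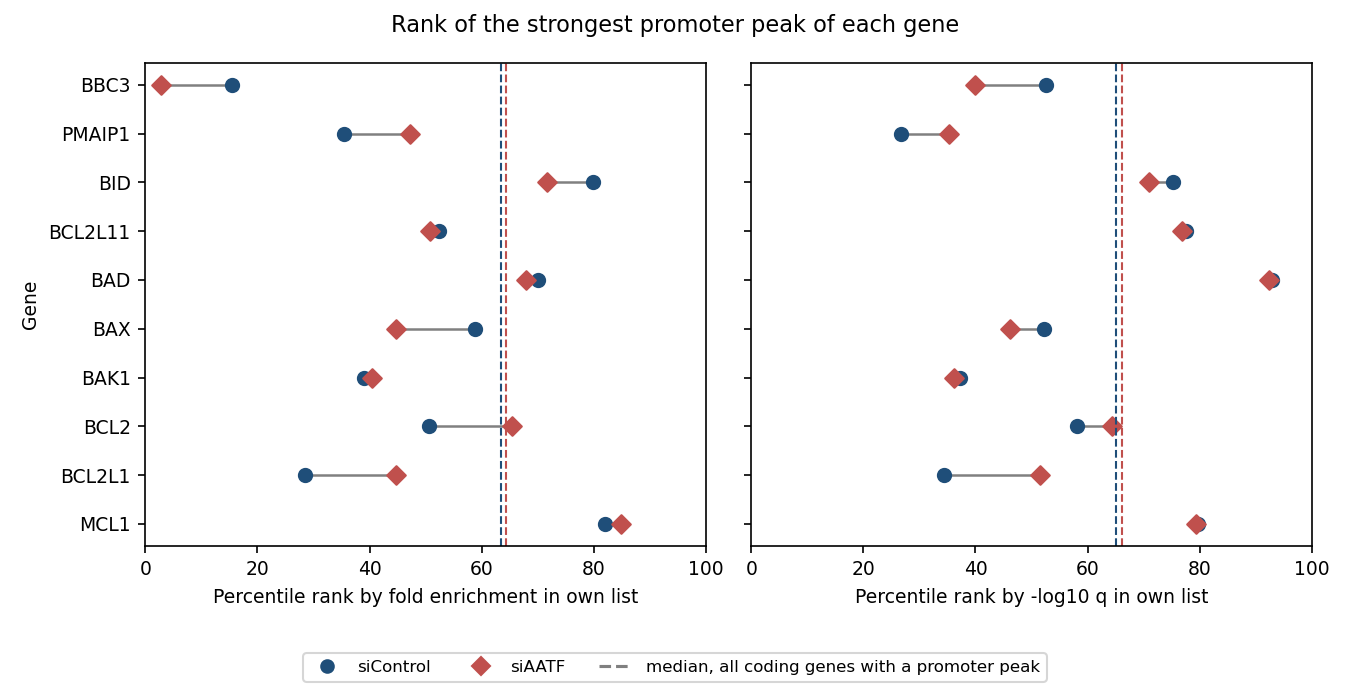
Percentile rank of the strongest promoter peak of each gene within its own list, by fold enrichment (left) and by −log10 q (right), with circles for siControl, diamonds for siAATF and dashed lines at the median of all coding genes with a promoter peak. BBC3 is the lowest by fold, at 15.4 and 2.82, and BAD the highest by −log10 q, at 92.9 and 92.3.

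All 3 survival genes had promoter peaks that ranked higher by fold in siAATF cells, as 51.3% of all gene pairs did, and by −log10 q MCL1 ranked lower. BCL2, the founding member of the family, spans 197 kb on the minus strand of chromosome 18 and had 1 peak in each list, at its promoter (chr18:60986801-60988014 in siControl cells and chr18:60986968-60987980 in siAATF cells). Fold enrichment was 5.87 in siControl cells and 6.55 in siAATF cells, with a −log10 q of 13.5 and 16.1. BCL2 ranked 50.7 and 65.4 by fold, 14.7 points higher in siAATF cells, and 58.2 and 64.3 by −log10 q.

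BCL2L1 encodes BCL-XL, a survival protein anchored in the mitochondrial outer membrane. Its peak was the widest of the siControl promoter peaks of the family at 1222 bp, chr20:30310625-30311846, and 1298 bp in siAATF cells, chr20:30310629-30311926. Fold enrichment was 4.53 in siControl cells and 5.27 in siAATF cells, with a −log10 q of 5.47 and 9.72. The ranks were 28.4 and 44.8 by fold and 34.4 and 51.5 by −log10 q. These differences of 16.4 and 17.1 points were the highest among the 10 promoter peaks on both measures.

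MCL1, a short-lived survival protein, had the highest fold enrichment of the 10 genes. The peak at chr1:150551512-150552495 in siControl cells (chr1:150551625-150552525 in siAATF cells) had a fold of 8.15 and 7.91 and a −log10 q of 36.7 and 32.6. In both lists this peak also held the start of a long non-coding gene, ENSG00000290074. Its ranks in both lists lay close together, at 82.1 and 84.8 by fold (69.2% of all pairs differed at least as much) and 79.7 and 79.3 by −log10 q, the latter a difference of −0.339 points. The near-core shown above lies 267 bp inside the gene from the canonical start. A further peak, chr1:150533392-150534919 in siControl cells, was assigned to the gene body of MCL1 by the annotated span of the gene, but lies downstream of the canonical transcript and holds the start of the long non-coding gene ADAMTSL4-AS1. Its fold was 4.67 in siControl cells and 5.46 in siAATF cells, and it ranked 31.2 and 47.7, a difference of 16.6 points.

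Set against the whole list, the ranks of the 10 genes did not all differ in one direction. By fold, 5 ranked higher and 5 lower in siAATF cells, where 51.3% of all pairs ranked higher. The median difference was −0.0757 points, against 0.191 over all 11561 coding genes whose strongest promoter peaks in both lists overlapped. By −log10 q, 3 ranked higher and 7 lower, where 55.7% of all pairs ranked higher, with a median of −0.696 against 0.473 points. The BH3-only genes had 1 of 5 higher by fold, the effectors 1 of 2 and the survival genes 3 of 3. By −log10 q the numbers were 1, 0 and 2, since MCL1 then lay slightly lower. These counts include the peak of BAD, which cannot be assigned to BAD rather than to GPR137. They rest on 1 library per condition and on genes that were named for their roles, and were not tested.

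The size of the differences was less even. By fold, 5 of the 10 genes (BBC3, BAX, PMAIP1, BCL2 and BCL2L1) differed by more than 10 points, where 25.9% of all gene pairs did, and 0 differed by more than 20 points, where 6.44% did. The median absolute difference of all pairs was 5.08 points. Differences were wider lower in the lists. Of gene pairs with a mean rank of 75 to 100, 13.3% differed by more than 10 points, and 37.2% did so with a mean rank of 25 to 50. Of the 5 members above 10 points, 1 had a mean rank under 25 and 2 had one of 25 to 50, and the other 2 had one of 50 to 75, where 29.2% of pairs differed that much. By −log10 q, 2 members, BBC3 and BCL2L1, differed by more than 10 points, near the 12.5% of all pairs that did, and the median absolute difference was 5.20 points for the family and 2.67 points for all pairs.

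**Figure D3:**
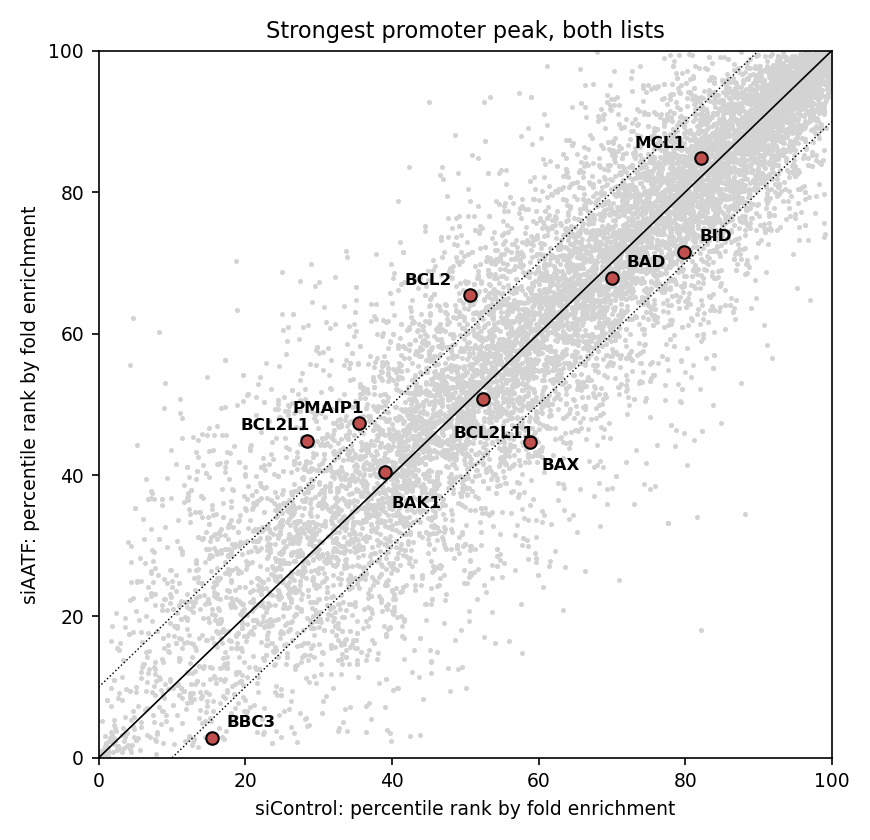
Percentile rank by fold enrichment of the strongest promoter peak in siControl cells (x axis) and the siAATF list (y axis), with a grey point for each of 11561 coding genes, labelled red points for the 10 members, the line of equal rank and dotted lines 10 points either side. BCL2, BCL2L1 and PMAIP1 lie above the upper dotted line and BAX and BBC3 below the lower one.

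Gene-body peaks outside the promoter were found in 3 of the 10 genes (BBC3, MCL1 and BAD) in each list, against 13.1% of coding genes in siControl cells and 14.1% in siAATF cells. The other 7 had none, including BCL2 with its 197 kb and BCL2L1 with 59.5 kb. Those of BAD and MCL1 hold or lie near starts of other genes, as given above.

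The 4 members with the highest −log10 q (BAD, MCL1, BCL2L11 and BID) held a core or near-core in their strongest promoter peak in both lists. Of the other 6, BBC3 held one there in siControl cells. Such matches were common at that strength. Among all strongest siControl promoter peaks in deciles 7, 8 and 9 of −log10 q, which hold these 4 members, the shares were 71.9%, 85.0% and 93.4%. An exact core lay in the strongest promoter peak of 1 of the 10 genes in each list. The share was 19.0% of coding genes with a promoter peak in siControl cells and 19.1% in siAATF cells. The 1 gene was BAD, whose peak cannot be assigned to it rather than to GPR137. With up to 1 mismatch, 5 siControl peaks matched (BBC3, BID, BCL2L11, BAD and MCL1) and 4 siAATF peaks did, against 62.4% and 62.2%. The gene not matched in siAATF cells was BBC3, whose 2 siControl matches lay at the edge of the peak, beyond the border of the narrower siAATF peak, and its weaker promoter peak held a match in each list. The shorter palindrome TGCGCA, which is the same on both strands and can overlap the core, was present in 3 of the 10 genes (BCL2, MCL1 and BAD) in each list, against 29.9% of coding genes with a promoter peak in siControl cells and 29.9% in siAATF cells. BAX, BAK1, PMAIP1 and BCL2L1 had neither a core with up to 1 mismatch nor TGCGCA in their promoter peaks. In the 300 bases from 250 before to 50 after the canonical start, the core was present in 8.37% of all 19794 coding genes and TGCGCA in 10.8%.

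Across all coding genes, the share of strongest promoter peaks with an exact core differed steeply by −log10 q. In the siControl list it was 0.937% in the lowest decile of the peaks, 9.93% in the seventh, which holds BID and BCL2L11, 27.2% in the eighth, which holds MCL1, and 56.6% in the ninth, which holds BAD. The highest decile, with no member of the family, reached 75.4%. In the siAATF list the ninth decile, again with BAD, reached 57.7%. These shares describe the peaks and do not show that NRF-1 bound at the printed sites.

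**Figure D4:**
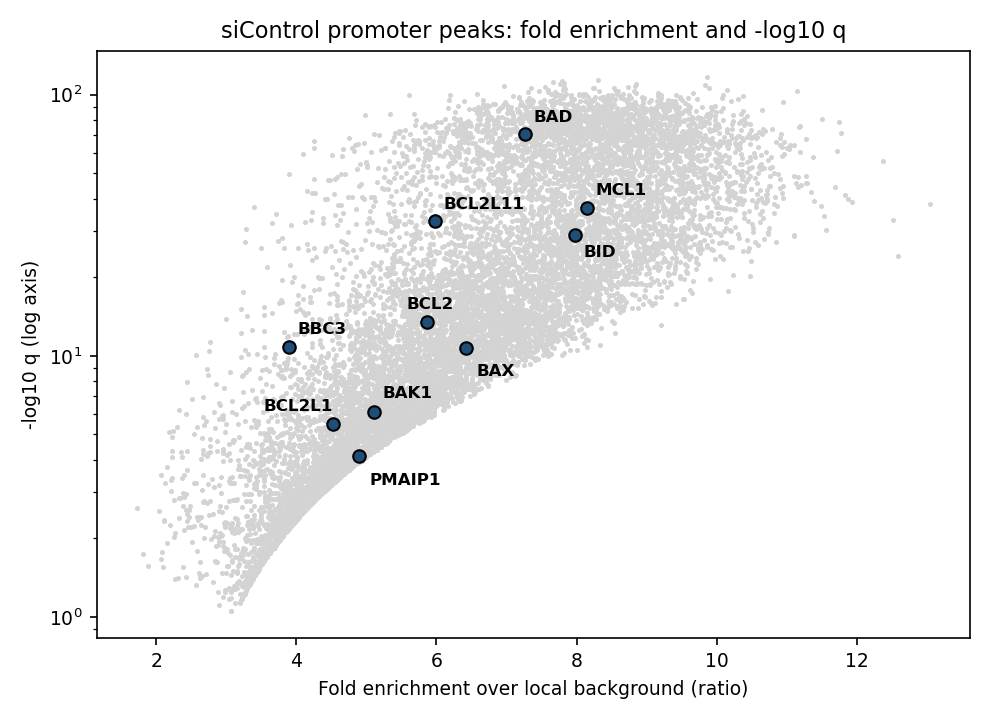
Fold enrichment over local background (x axis, ratio) and −log10 q (y axis, log scale) of promoter peaks in siControl cells, with grey points for all of them and labelled points for the strongest peak of each of the 10 genes. BAD, BCL2L11 and BBC3 stand high for their fold, whereas PMAIP1 lies in the lower part with 4.12 at a fold of 4.90.

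Fold and −log10 q thus ordered the members differently. Among siControl promoter peaks within 10% of the fold of BCL2L11, 86.3% had a lower −log10 q, and 85.3% did so for BAD. For PMAIP1 the share was 17.8%, and the median −log10 q of peaks with a like fold was 5.64 against its own 4.12. In siAATF cells the share was 85.6% for BCL2L11 and 85.0% for BAD, and peaks with a fold like that of PMAIP1 had a median of 8.69 against its own 5.34.

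A selection of 30 other genes of the mitochondrial and death-receptor pathways was read in the same way. It does not hold every gene of these pathways or of the BCL2 family. Of the 30, 25 had a promoter peak in siControl cells, 26 in siAATF cells and 24 an overlapping pair. The shares of all coding genes were 61.1%, 60.7% and 59.4%. Among the 7 other BCL2 family genes in the selection, BCL2A1, BCL2L10 and BOK had none in either list. BIK, a BH3-only gene, had a peak in siControl cells alone, with a fold of 4.17, a −log10 q of 3.41 and a rank of 21.3 by fold. CASP8, the initiator caspase of the death receptors, had one in siAATF cells alone, with 3.99 and 2.37 for fold and −log10 q and a rank of 18.7. TNFRSF10A, a TRAIL receptor, likewise had one in siAATF cells alone, with a fold of 3.50, a −log10 q of 1.58 and a rank of 7.42. All 3 peaks found in a single list were thus weak ones of that list.

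Highest by fold in siControl cells among the 30 were MDM2, a ubiquitin ligase (rank 98.9, and 91.0 in siAATF cells), and the inhibitors of apoptosis BIRC3 (97.3 and 85.7) and XIAP (90.7 and 84.5). All 6 inhibitors of apoptosis and their antagonists in the selection, and all 6 regulators in it, had promoter peaks in both lists. The exact core was present in 3 of the 30 in each list, against 19.0% of coding genes with a promoter peak in siControl cells and 19.1% in siAATF cells. These were FADD, the adaptor of the death receptors, VDAC3, a channel of the mitochondrial outer membrane, and FOXO3, a transcription factor that can induce BCL2L11. Over the 24 pairs, 11 ranked higher and 13 lower by fold in siAATF cells, with a median difference of −1.12 points, and 4 differed by more than 20 points, where 6.44% of all pairs did. These 4, named after their values were seen, were APAF1, which ranked higher in siAATF cells, and FADD, TP73 and CFLAR, which ranked lower. CYCS, the cytochrome c gene and a classical NRF-1 target, was also picked out afterwards. It ranked 98.9 and 99.4 by −log10 q, above all 10 members of the BCL2 family. Its promoter peak held no exact core in either list, only a site with 1 mismatch.

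**Figure D5:**
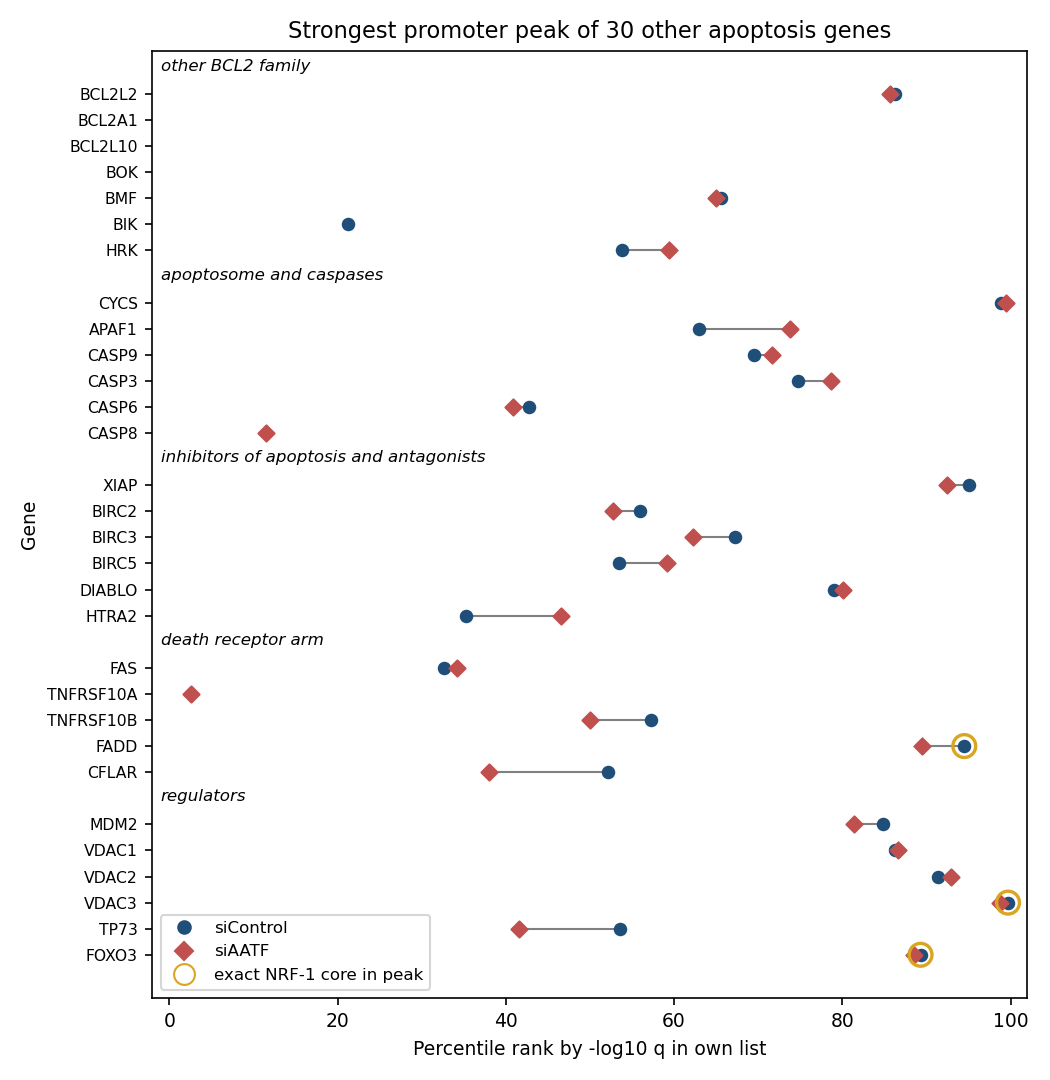
Percentile rank by −log10 q of the strongest promoter peak of 30 other apoptosis genes, by group, with circles for siControl, diamonds for siAATF and a ring where the siControl peak holds the exact NRF-1 core. Genes with no symbol (BCL2A1, BCL2L10, BOK) had no promoter peak, and BIK, CASP8 and TNFRSF10A show a single symbol.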

How the data were processed

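ChIP-seq libraries were made by ChIPmentation with an NRF-1 antibody. Per the study's methods and the submitters' processing notes, the authors aligned reads to hg19 with Bowtie2 and called peaks with MACS2 in an ATAC-seq Nextflow pipeline at default settings. A pipeline for ATAC-seq may treat fragments and background otherwise than one for ChIP-seq, and peaks called in the broad mode have no summit, so midpoints stand for positions. The deposited broadPeak lists hold a fold enrichment (a ratio to local background), the −log10 p and −log10 q, and a display score. The score and the −log10 p were not used. Starts were converted to 1-based positions.

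Promoters were drawn from GENCODE release 44 lifted to hg19, 1000 bp either side of every protein-coding transcript start. A peak counted with an overlap of at least 1 base, and lists were compared by the same overlap. The strongest peak of a gene was that with the highest fold enrichment. Ranks ran from 0 to 100 over all peaks of a list, with ties averaged. Motifs were searched on both strands of hg19 in Python 3.11.15 with pysam 0.24.0, pandas 2.3.3 and numpy 2.4.6. The scripts were checked on simulated peaks. The 10 genes, the 30 pathway genes and the motifs were chosen with earlier results of these data known. Further pathway genes and a promoter sequence are not reported here. Named in the text were the 10 genes, pathway genes with a promoter peak in one list or in neither, the 3 highest by fold in the siControl list, and coding genes sharing a peak with a member. With 1 list per condition and no read depth, no p-value or interval was computed. Alternatives were the promoter width, the canonical start alone, a −log10 q of at least 5, the 10000 strongest peaks, a reciprocal overlap of 50%, other ranks and up to 1 motif mismatch.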

Additional observations from a re-analysis of the deposited data

How the results depend on the processing

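Of 27 values computed under alternatives, 20 stayed alike, 7 moved and 0 reversed. Only the median rank difference could reverse, as a count has no sign. Ranking the peak nearest to the canonical start gave every member the same difference as its strongest peak, so that setting could not differ. A count was taken as alike within 1.5 times the value reported, and a median rank difference only when equal to 3 significant digits, as there was no replicate spread to set it against. Among the 10000 strongest peaks of each list, 6 members had a promoter peak in siControl cells, 6 in siAATF cells and 5 in both (44.2%, 43.6% and 41.0% of coding genes), and BAK1, BAX, BBC3, BCL2L1 and PMAIP1 lost theirs in one list or in both. The median rank difference of −0.0757 points was −0.696 by −log10 q and −0.927 among promoter peaks alone. With up to 1 mismatch in any promoter peak, 5 members held the core in siControl cells and 5 in siAATF cells. A promoter of 500 bp either side left 9 members in each list, without BAD. No paired analysis was possible because each condition had 1 list. Depth is unknown, so how far the weaker peaks depend on it was not tested, and replicate spread could not be measured.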
